A study of Mus musculus with 4 samples.

Results

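The 9 genes described here are Sox1, Sox2, Sox3, Sox4, Sox5, Sox6, Sox11, Sox12 and Sox21, the Sox family members chiefly known from neural progenitors and young neurons. They were listed by name and not by a rule on measured values, but with earlier results of these data known. All 9 were found among 20252 genes measured, each through 1 transcript cluster, the probe set that stands for a gene on this array. The tissue was neuroretina, the neural layer of the eye, taken from CD-1 mice at embryonic day 13.5. The control group (2 arrays) was Lhx2 lox/lox, with loxP sites flanking the gene for the LIM-homeodomain factor Lhx2 and no Cre. The knockout group (2 arrays) carried the same floxed alleles and the Chx10-Cre transgene, which drives Cre recombinase in retinal progenitors. Both groups therefore share the floxed alleles, and only the knockout group has Cre, so what the transgene does by itself and what loss of Lhx2 does cannot be told apart. Nothing in the labels says whether a replicate is 1 embryo, a litter or a pool, and p-values then cover just the variation among these 4 arrays, which may be technical.

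Sox proteins bind DNA through an HMG box and are grouped by sequence. SoxB1 factors (Sox1, Sox2 and Sox3) hold neural progenitors in an undifferentiated state, and in the mouse retina Sox2 is needed for progenitors to keep dividing and to make neurons. The SoxB2 factor Sox21 is a repressor that opposes SoxB1 activity in the chick neural tube, SoxC factors (Sox4, Sox11 and Sox12) promote neuronal differentiation, and Sox4 and Sox11 together are needed for mouse retinal ganglion cells. SoxD factors (Sox5 and Sox6) have no activation domain of their own and act in cortical neurons, oligodendrocytes and cartilage.

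Signals are given as log2 signal minus the median of all 112205 transcript clusters on the same array, called the centred signal, so that 0 is the array median. The medians taken away were 2.97 (control replicate 1), 3.53 (control replicate 2), 2.85 (knockout replicate 1) and 3.46 (knockout replicate 2). The 75th percentile of all clusters lay 0.99 to 1.13 above the median, and a signal below it was not told from background. Centred signals of a gene can be compared between arrays, but not between genes, whose probes differ. Summed signals of a gene list weight each gene by the response of its probes. They are compared only between arrays, and a gene's part in a sum is not its share of the RNA. Lhx2 itself had centred signals of 3.39 and 2.96 in control and 3.53 and 3.04 in knockout arrays, so its transcript cluster did not show the deletion. The sources used here do not give the exons its probes cover, and all directions rest on the labels. The neuroretina markers Rax, Pax6, Six3 and Six6 lay above the 75th percentile on all 4 arrays, but their level was not the same in both groups. The summed signal of the 5 retinal progenitor markers measured (these 4 and Lhx2), in multiples of the array median, was 131 and 132 in control and 61.0 and 50.2 in knockout arrays. Of the 5, 3 (Rax, Pax6 and Six6) were lower without overlap of the groups, beside 15.8% of all genes. The list median was -0.68, or -0.50 within replicate 1 and -0.87 within replicate 2. Six6 had centred signals of 5.18 and 5.23 in control and 1.70 and 1.54 in knockout arrays, a difference of -3.59. The precision of each value is limited by the number of arrays, 2 per group.

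Sox2 was lower in the knockout neuroretina, while Sox21, Sox1, Sox6, Sox4, Sox3, Sox5 and Sox11 were higher and Sox12 showed almost no difference. The sizes ran from a 2.02-fold lower signal for Sox2 to a 3.12-fold higher signal for Sox21. No member passed limma's adjusted p of 0.05 over all genes, and neither did any other gene (0 of 20252, or 0%, at this scale). At an unadjusted limma p under 0.05 there were 6 members of 9, 5 higher (Sox1, Sox3, Sox5, Sox6 and Sox21) and 1 lower (Sox2), beside 9.67% of all genes (5.9% higher and 3.77% lower). The groups did not overlap for 8 members, 7 higher and 1 lower, where 39% of all genes did not overlap (23.3% higher and 15.8% lower). On deposited values 5 members were higher without overlap (9.63% of all genes) and 2, Sox2 and Sox12, were lower (10.2%). After quantile normalization 6 were higher (20.6%), as when arrays were centred on the named genes (10.1%). Sox11 overlapped on each of these 3 scales, and Sox5 on deposited values. The median difference over the 9 members was 0.69 on the log2 scale, against 0.03 over all genes. In whole-tissue RNA of this kind, fewer cells of a type and less RNA per cell cannot be told apart.

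**Figure D1:**
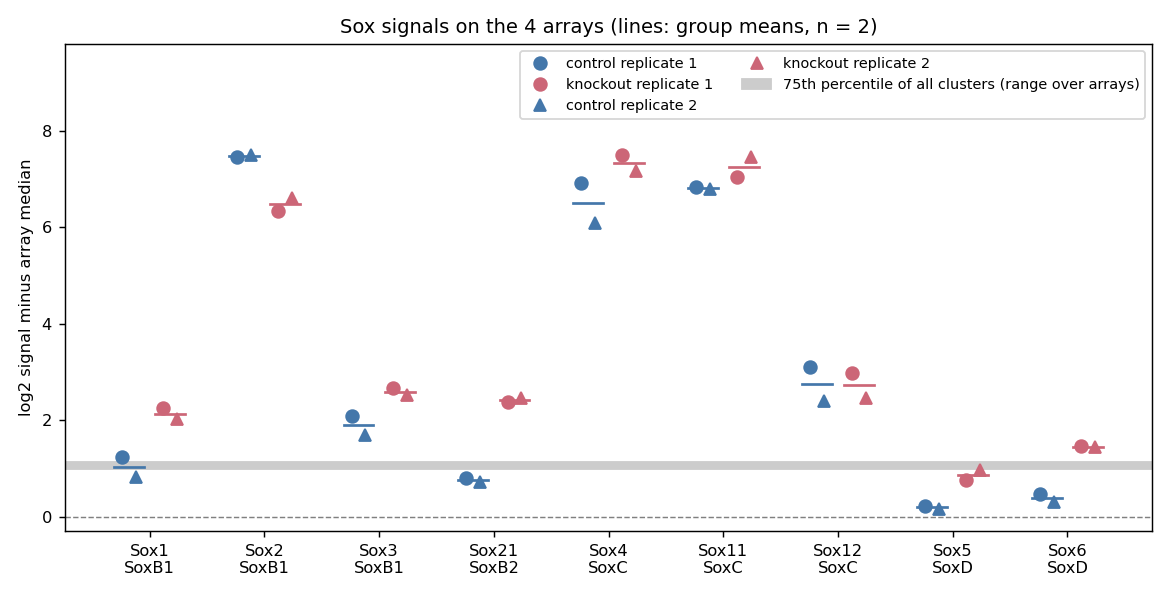
Centred log2 signal (log2 signal minus the array median) of the 9 Sox genes on each array, with blue for control, red for knockout, circles for replicate 1, triangles for replicate 2, short lines for group means (n = 2) and a grey band for the range of the 75th percentile of all clusters over the 4 arrays. Sox2 has both knockout points below both control points, 7 other genes have both above, and Sox12 overlaps.

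The sequences before the transcription starts of Sox2, Sox1 and Sox21 are printed because these 3 SoxB genes carried the largest opposite differences. Each run is the 250 bases before the start on the gene's own strand, from RefSeq on GRCm38.p6: chr3:34649745-34649994 on the plus strand for Sox2, chr8:12395269-12395518 on the plus strand for Sox1 and chr14:118237031-118237280 on the minus strand for Sox21. Capitals mark matches on either strand to TAATTA, a core bound by LIM-homeodomain factors, or to ACAAAG or ACAATG, both Sox cores, and no match of one overlaps another here.
Sox2: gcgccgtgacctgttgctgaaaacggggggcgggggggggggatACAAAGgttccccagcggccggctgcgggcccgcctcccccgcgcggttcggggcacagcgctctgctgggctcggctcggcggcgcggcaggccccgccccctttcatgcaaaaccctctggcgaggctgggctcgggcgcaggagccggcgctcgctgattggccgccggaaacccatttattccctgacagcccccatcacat
Sox1: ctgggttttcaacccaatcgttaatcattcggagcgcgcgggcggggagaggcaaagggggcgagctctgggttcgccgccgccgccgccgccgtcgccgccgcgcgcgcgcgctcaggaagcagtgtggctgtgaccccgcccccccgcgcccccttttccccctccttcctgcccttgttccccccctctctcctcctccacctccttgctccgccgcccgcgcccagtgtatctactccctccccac
Sox21: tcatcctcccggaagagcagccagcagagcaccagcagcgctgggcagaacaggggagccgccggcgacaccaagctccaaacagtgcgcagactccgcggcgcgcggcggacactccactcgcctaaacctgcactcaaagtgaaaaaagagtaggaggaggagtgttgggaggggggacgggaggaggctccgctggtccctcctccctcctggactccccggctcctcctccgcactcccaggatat
The Sox2 run held ACAAAG, starting 206 bases before the transcription start, and the Sox1 and Sox21 runs held none of the 3 motifs. The 3 runs were rich in G and C, with 72.0%, 71.2% and 65.2% in Sox2, Sox1 and Sox21, against a median of 52.4% over 32851 such windows. They held 27, 29 and 17 CG pairs, against a median of 6. Of the members, 8 of 9 matched the RefSeq table, with 13 windows in all, 6 of them of Sox6. TAATTA was in 0 of the 13 and in 4.8% of all windows. ACAAAG was in windows of Sox2 and Sox6 and in 16.5% of all windows, and ACAATG was in windows of Sox5 and Sox6 and in 10.7% of all windows.

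Among the SoxB1 genes, Sox2 had centred signals of 7.47 and 7.51 in control replicates 1 and 2. It had 6.33 and 6.62 in knockout replicates 1 and 2. Both knockout signals lay below both control signals, and all 4 were far above the 75th percentile. The log2 difference, knockout minus control, was -1.01 (SE 0.24, 95% interval -1.62 to -0.41, limma adjusted p = 0.293), with -1.14 in replicate 1 and -0.89 in replicate 2. The Sox2 gene lies inside the span of the long noncoding gene Sox2ot in the RefSeq table. Sox2ot had centred signals of 0.31 and 0.26 in control and 0.35 and 0.63 in knockout arrays, below the 75th percentile on all 4, with a difference of 0.21 (limma adjusted p = 0.774).

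Sox1, which in the mouse is known from neural progenitors and the lens, had centred signals of 1.24 and 0.84 in control and 2.26 and 2.02 in knockout arrays. The knockout signals were higher than both control signals, and 1 of the 2 control signals lay below the 75th percentile. The difference was 1.10 (SE 0.24, 95% interval 0.50 to 1.70, limma adjusted p = 0.254), a 2.14-fold higher signal, with 2.01-fold within replicate 1 and 2.28-fold within replicate 2. Sox1 lies inside the span of the noncoding gene Sox1ot, whose 4 signals stayed between 0.29 and 0.41, below the 75th percentile on each array. Of 10 lens markers, 6 lay below the 75th percentile on every array. Without overlap, 2 were higher (Cryba1, difference 0.93, and Bfsp2, 0.36), beside 23.3% of all genes, and 1 was lower (Crygs, -0.08), beside 15.8%. Bfsp2 and Crygs lay below the 75th percentile on all 4 arrays, and Cryba1 lay above it on knockout replicate 1 only. The summed signal of the list was 38.4 and 45.7 in control and 44.0 and 49.5 in knockout arrays, most of it from Prox1, which the retina also expresses. Without Prox1 it was 15.9 and 14.5 in control and 21.1 and 12.1 in knockout arrays. The part of lens in the Sox1 difference was not tested.

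Sox3, a factor of the developing hypothalamus and pituitary as well as of neural progenitors, had centred signals of 2.09 and 1.70 in control and 2.66 and 2.52 in knockout arrays. The groups did not overlap, and all 4 signals lay above the 75th percentile. The difference was 0.69 (SE 0.24, 95% interval 0.08 to 1.31, limma adjusted p = 0.456), with 0.57 within replicate 1 and 0.82 within replicate 2.

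Sox21, the SoxB2 member, had centred signals of 0.81 and 0.73 in control and 2.37 and 2.46 in knockout arrays. Both control signals were below the 75th percentile and both knockout signals above it, so the fold is against a level that was not told from background. The difference was 1.64 (SE 0.19, 95% interval 1.16 to 2.12, limma adjusted p = 0.107), a 3.12-fold higher signal, with 2.94-fold within replicate 1 and 3.31-fold within replicate 2. Among all genes its difference ranked 185 from the highest, and that of Sox2 ranked 219 from the lowest. When arrays were not centred, limma took each variance from the intensity trend alone, so a pass there does not reflect a gene's own replicate spread. Sox21 passed the same threshold in limma in that fit (difference 1.55, adjusted p = 0.0168), where 2.05% of all genes passed. It also passed with knockout replicate 1 left out (adjusted p = 0.0242, beside 1.35% of all genes) and with knockout replicate 2 left out (adjusted p = 0.00972, beside 3.84%). With a control array left out the adjusted p was 0.388 or 0.466.

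The opposite differences of Sox2 and the other SoxB genes can be set against each other on the same array, where a shift common to all its genes cancels. A difference in spread between arrays does not cancel. The log2 signal of Sox21 minus that of Sox2 was 2.69 higher in knockout than in control within replicate 1 and 2.62 higher within replicate 2. The same change was 2.15 and 2.08 for Sox1 minus Sox2, and 1.71 and 1.70 for Sox3 minus Sox2. These changes restate the differences given above, which were unequal between the genes, and were not tested. Both control signals of Sox21 and 1 of Sox1 were below the 75th percentile, so the sizes for these genes are against a level not told from background.

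Among the SoxC genes, Sox4 had centred signals of 6.92 and 6.08 in control and 7.49 and 7.18 in knockout arrays. The lowest knockout signal was above the highest control signal by less than the control arrays differed from each other. The difference was 0.83 (SE 0.36, 95% interval -0.08 to 1.75, limma adjusted p = 0.573), with 0.57 within replicate 1 and 1.09 within replicate 2. It was 0.41 without control replicate 2 and 1.25 without control replicate 1. Sox11 had 6.83 and 6.81 in control and 7.04 and 7.46 in knockout arrays. Its difference was 0.43 (SE 0.25, 95% interval -0.22 to 1.08, limma adjusted p = 0.705), and it was 0.23 without knockout replicate 2, 0.26 when arrays were centred on the named genes and 0.64 without knockout replicate 1. Sox12 had 3.10 and 2.41 in control and 2.99 and 2.47 in knockout arrays. Its groups overlapped, and its difference of -0.03 (SE 0.35, 95% interval -0.91 to 0.86, limma adjusted p = 0.993) had opposite signs within replicate 1 (-0.11) and replicate 2 (0.06).

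Among the SoxD genes, Sox6 had centred signals of 0.47 and 0.31 in control and 1.47 and 1.45 in knockout arrays. The control signals were below and the knockout signals above the 75th percentile. The difference was 1.07 (SE 0.16, 95% interval 0.65 to 1.48, limma adjusted p = 0.153), a 2.10-fold higher signal, with 1.99-fold within replicate 1 and 2.20-fold within replicate 2. Sox6 passed with knockout replicate 2 left out (adjusted p = 0.0258, beside 3.84% of all genes), and not with knockout replicate 1 (0.0657), control replicate 1 (0.456) or control replicate 2 (0.615) left out. Sox5 had 0.23 and 0.16 in control and 0.77 and 0.96 in knockout arrays, all below the 75th percentile, and its difference was 0.67 (SE 0.14, 95% interval 0.30 to 1.04, limma adjusted p = 0.254). Its groups did not overlap on the centred scale, but no array gave a Sox5 signal told from background.

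**Figure D2:**
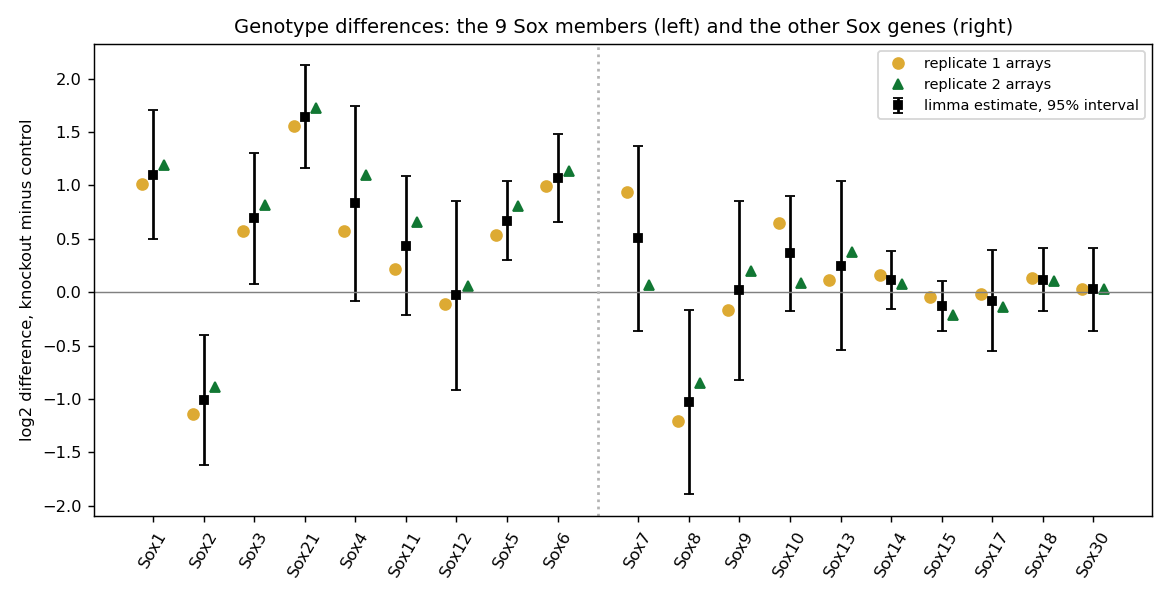
Log2 difference, knockout minus control, of the 9 members (left of the dotted line) and of the 10 other Sox genes (right), as the limma estimate with its 95% interval (black squares and bars) and within the replicate 1 arrays (yellow circles) and replicate 2 arrays (green triangles). Sox2 and Sox8 have intervals below 0, and Sox1, Sox3, Sox21, Sox5 and Sox6 have intervals above 0.

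Differences within each replicate number were alike for most members. At least 1.5-fold higher in both replicates were 3 members (Sox1, Sox6 and Sox21), beside 3.36% of all genes, and 1 member (Sox2) was at least 1.5-fold lower in both, beside 2.49%. Of the 7 members that were higher in both replicates, all 7 had the larger difference within replicate 2. The share of all genes with that order was not counted, so the count is a description only. The median difference over all genes was 0.05 within replicate 1 and 0.01 within replicate 2. In the fits run (12 in all, 11 of them with Sox5 and Sox6), 8 members kept the sign of their difference, and Sox12 did not. For those 8 members only the fits on another array scale could have changed the sign. Groups that do not overlap keep their sign when 1 array is left out. The block, the intensity trend, the dim genes and the averaging of clusters leave the differences of these members as they are.

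**Figure D3:**
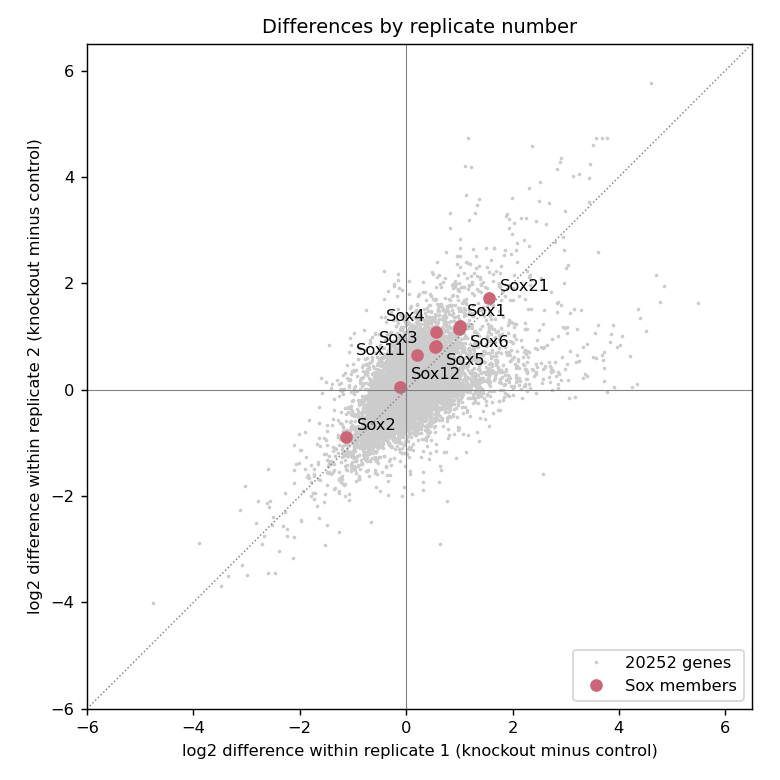
Log2 difference, knockout minus control, within the replicate 1 arrays (x axis) against that within the replicate 2 arrays (y axis) for all 20252 genes (grey) and the 9 Sox members (red, labelled), with a dotted line where both are equal. Sox21 lies highest at 1.56 and 1.73, Sox2 lowest at -1.14 and -0.89, and Sox12 near 0.

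The other 10 Sox genes measured differed by -1.03 (Sox8) to 0.50 (Sox7). None passed limma's adjusted p of 0.05, 1 (Sox8, lower) had an unadjusted p under 0.05 beside 3.77% of all genes, and the list median was 0.07 within replicate 1 and 0.07 within replicate 2. Sox8, a SoxE gene, had centred signals of 1.94 and 1.12 in control and 0.73 and 0.26 in knockout arrays, and a difference of -1.03 (SE 0.34, limma adjusted p = 0.428). Both knockout signals of Sox8 were below both control signals and below the 75th percentile, so the fall ends at a level not told from background. Sox9, the SoxE gene of progenitors and glia, had overlapping groups and a difference of 0.02 (SE 0.33, limma adjusted p = 0.995). Sox10, which marks neural crest derivatives, stayed below the 75th percentile on all 4 arrays and had the second smallest p of this list, with a difference of 0.36 (limma adjusted p = 0.702). Of the SoxF genes of vessels, Sox7 differed by 0.94 within replicate 1 and by 0.07 within replicate 2. Sox7 lay above the 75th percentile on knockout replicate 1 only, and Sox17 and Sox18 stayed below it throughout.

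Of 14 measured genes that act with SoxB1 factors in neural progenitors, 4 had a difference above 0 and the others below it. None passed limma's adjusted p of 0.05, and at an unadjusted p under 0.05 there were 5 lower and 3 higher, beside 3.77% and 5.9% of all genes. The median difference was -0.38, with -0.36 within replicate 1 and -0.44 within replicate 2, against 0.03 over all genes. The median rested on single arrays: it was -0.08 without knockout replicate 2, -0.17 without control replicate 1, -0.61 without control replicate 2 and -0.71 without knockout replicate 1. Rax, an eye field homeobox gene, had centred signals of 4.74 and 4.89 in control and 2.46 and 2.94 in knockout arrays, a difference of -2.11 (SE 0.27, limma adjusted p = 0.113). Fabp7, a fatty acid binding protein gene of radial glia, went the other way, from 0.25 and 0.61 in control to 2.94 and 4.12 in knockout arrays. Its difference was 3.10 (SE 0.43, limma adjusted p = 0.129), with both control signals below the 75th percentile. Rax, Ccnd1 (a G1 cyclin gene), Fabp7 and Pou3f2 (a POU factor gene) passed when arrays were not centred, where 2.05% of all genes passed. That fit gave no weight to a gene's own replicate spread.

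Genes listed as following SoxC factors in neurons lay on both sides of 0, with 10 of 17 measured above it. The list was set by name with earlier results of these data known, and whether its genes depend on SoxC factors here was not tested. None passed limma's adjusted p of 0.05, and at an unadjusted p under 0.05 there were 3 higher and 2 lower, beside 5.9% and 3.77% of all genes. The median difference was 0.28, with 0.01 within replicate 1 and 0.34 within replicate 2, where Sox4 differed by 0.57 and 1.09 and Sox11 by 0.21 and 0.65. That median was 0.10 without knockout replicate 2 and 0.40 without knockout replicate 1. It was 0.10 when arrays were centred on the named genes and 0.16 after quantile normalization. Atoh7, a proneural gene required for retinal ganglion cells, had centred signals of 6.12 and 6.18 in control and 4.64 and 4.39 in knockout arrays. Its difference was -1.64 (SE 0.24, limma adjusted p = 0.141). Map2, a microtubule protein gene of dendrites, had 3.03 and 2.75 in control and 3.89 and 4.24 in knockout arrays, a difference of 1.18 (SE 0.26, limma adjusted p = 0.268).

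Markers of tissues outside the neuroretina also differed between the groups, and the counts without overlap below stand beside 23.3% higher and 15.8% lower over all genes. Of 9 periocular mesenchyme markers, 8 were higher in knockout arrays without overlap, and the summed signal was 22.1 and 19.9 in control and 322 and 45.3 in knockout arrays. Twist2 lay within 0.2 of the array median on both control arrays and on knockout replicate 2. The median difference of that list was 3.02 within replicate 1 and 1.01 within replicate 2. Of 6 pigment epithelium markers, 5 were higher without overlap, with summed signals of 13.6 and 29.4 in control and 133 and 41.9 in knockout arrays, while Rpe65 was below the array median on all 4. Their medians were 2.64 within replicate 1 and 0.52 within replicate 2. Of 6 vascular markers, 5 were higher and 1 (Kdr) lower without overlap, with summed signals of 74.3 and 57.6 in control and 82.3 and 44.9 in knockout arrays, and medians of 1.60 and 0.60. Kdr, itself at 5.96 and 5.49 in control and 5.38 and 4.67 in knockout arrays, carried most of that sum, and the other 5 markers summed to 11.9 and 12.7 in control and 40.7 and 19.4 in knockout arrays. These 3 lists had their larger medians within replicate 1. Each such order rests on 1 array per group and replicate number, and what it means for the Sox members was not tested.

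Markers of hypothalamus and forebrain had the opposite order. Of 6 measured, 5 (Sim1, Otp, Lhx5, Fezf1 and Tbr1) were higher and 1 (Nkx2-2, difference -0.27) was lower without overlap. The summed signal was 6.93 and 6.44 in control and 81.8 and 147 in knockout arrays. The list median was 3.57 within replicate 1 and 4.48 within replicate 2. Otp, a hypothalamic transcription factor gene, and Sim1 had an adjusted p of 0.073 in limma, with differences of 3.85 and 5.18 against control signals below the 75th percentile, while Nkx2-2 stayed below the 75th percentile on all 4 arrays. All 5 macrophage markers were also higher without overlap, with summed signals of 10.7 and 11.7 in control and 17.8 and 22.7 in knockout arrays and medians of 0.80 and 1.09. Of the 7 cartilage markers 1 (Col11a1) was higher and 2 (Col9a1 and Matn1) were lower without overlap. The list summed to 42.7 and 36.9 in control and 41.4 and 26.4 in knockout arrays. Col2a1, Col9a1 and Sox9 carried most of that sum, and Sox9 is also a gene of progenitors and glia, so the sum does not measure cartilage alone. Acan, Matn1 and Hapln1 of that list were below the 75th percentile throughout, and the list median was 0.01 within replicate 1 and -0.04 within replicate 2. Of the 3 neural crest glia and melanocyte markers measured 2 (Sox10 and Erbb3) were higher without overlap. The list summed to 3.21 and 3.26 in control and 7.67 and 3.31 in knockout arrays. Sox10 lay below the 75th percentile on all 4 arrays. Erbb3 had centred signals of 0.08 and 0.08 in control and 2.24 and 0.11 in knockout arrays, above the 75th percentile on knockout replicate 1 only. The part of any of these tissues in the Sox differences was not tested.

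**Figure D4:**
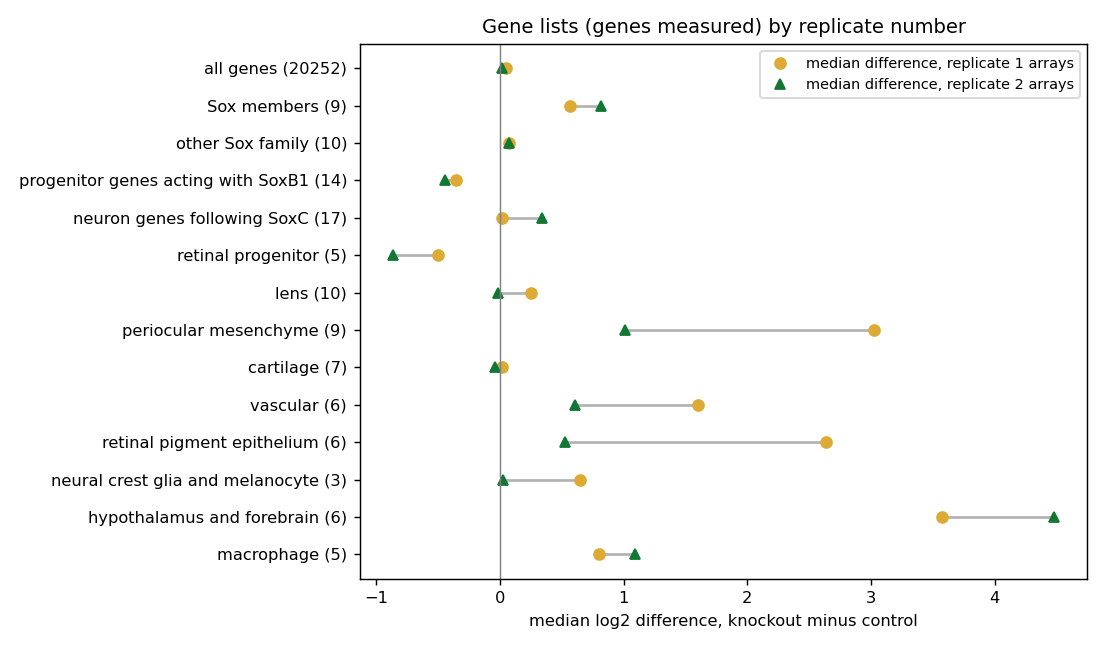
Median log2 difference, knockout minus control, of each gene list (number of genes measured in brackets) within the replicate 1 arrays (yellow circles) and the replicate 2 arrays (green triangles). The Sox members lie at 0.57 and 0.82, the hypothalamus and forebrain list is larger in replicate 2, and the periocular mesenchyme, vascular and pigment epithelium lists are larger in replicate 1.

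The genes closest in pattern to the most different members were found by the root mean square distance between centred signals over the 4 arrays, after taking away each gene's mean. Closest to Sox21 were Adamts18, a metalloproteinase gene (distance 0.055, difference 1.69), Gdpd2, a phosphodiesterase gene (0.065, difference 1.67), and Cdkn1c, which encodes a cyclin-dependent kinase inhibitor (0.067, difference 1.62). Cdkn1c had centred signals of 4.09 and 4.19 in control and 5.73 and 5.79 in knockout arrays, above the 75th percentile on all 4. Closest to Sox2 were Marchf11, a ubiquitin ligase gene (0.053, difference -1.07), Rsph1, a radial spoke protein gene (0.072, difference -1.08), and Ddias (0.077, difference -0.88). Both knockout signals of Marchf11 and Rsph1 lay below the 75th percentile, as did 1 control signal of Gdpd2, while Ddias and Adamts18 lay above it on all 4 arrays. With 4 arrays, many genes have a similar pattern, and the likeness is a description only.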

How the data were processed

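The 4 arrays were assigned to genotype and replicate number from the sample titles. Each deposited value is a log2 signal of a transcript cluster. The submitters' processing notes name RMA, Partek and the build mm9 but no versions, and other steps are not given in the sources used here. The deposited log2 array medians differed by replicate number, so each array was centred on its median. The adjusted p on uncentred values had also been reported not to hold its error rate in simulation.

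Platform annotation gave gene names. Among 112205 clusters, 25513 carried 1 symbol, 2290 more than 1, and 84402 stayed unnamed here. For 24917 clusters the identifier was in the RefSeq table of GRCm38.p6, and 0 symbols changed. The cluster with the highest mean stood for each of 20252 genes. The test was limma (version 3.58.1, under R 4.3.3; eBayes with an intensity trend, genotype as the only term, two-sided, Benjamini-Hochberg over all genes, adjusted p of 0.05), and the code was tested on simulated data. Intervals are limma's 95% intervals. Promoter sequences came from RefSeq. Depth in reads does not apply to arrays.

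The members, the gene lists and the test were chosen with earlier results of these data known. Text was limited to the 9 members, Lhx2, up to 4 passing genes per list or the 2 of smallest p where none passed, and the 3 genes most like the members with the largest rise and fall. Ccnd1, Pou3f2, Six3, Six6, Pax6, Sox7, Sox9, Sox17, Sox18 and the single markers Twist2, Kdr, Cryba1, Bfsp2, Crygs, Prox1, Rpe65, Nkx2-2, Otp, Sim1, Lhx5, Fezf1, Tbr1, Col2a1, Acan, Matn1 and Hapln1 were in part named after their values were seen. Alternatives covered array scale, replicate number, each array left out, dim genes, the variance prior, several clusters per gene and the threshold. The numbers were not taken to pair the samples, since the labels do not say so and there are 2 of them.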

Additional observations from a re-analysis of the deposited data

How the results depend on the processing

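The number of genes called depended on the scale of the arrays. On deposited values limma took each variance from the intensity trend alone, so calls there do not reflect a gene's own replicate spread. Against 0 genes in the centred fit (1959 at an unadjusted p under 0.05), limma called 257 higher and 158 lower on deposited values, 33 higher and 20 lower with dim genes left out, and 52 higher and 66 lower with arrays centred on the median of the named genes, a setting chosen after seeing the data. At an adjusted p of 0.10 the centred fit called 11 higher and 6 lower. Quantile normalization called 0 (2263 at an unadjusted p under 0.05), as did the fit without an intensity trend (1957) and that with all clusters of a gene averaged (2007). The limma fit with the replicate block had 0 calls at 0.05 (3266 genes had an unadjusted p under 0.05) and 114 at 0.10, of which 1 was a member, Sox21 (adjusted p = 0.099). Deviations of same-numbered arrays correlated at 0.479 across genes. The block changed no call at 0.05.

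With each array left out in turn, 0 to 698 genes were higher and 0 to 79 lower, and 0 to 2 members passed as higher (the array left alone in its group was assumed to vary like the other group). Both fits without a knockout array made calls and both without a control array made 0. The member median of 0.69 ranged from 0.50 to 0.89 in these fits and was 0.52 when arrays were centred on the named genes, a step that moved the median of all genes from 0.03 to -0.14. Sox12 ranged from -0.37 (without control replicate 2) to 0.32 (without control replicate 1), with 0.23 without knockout replicate 2. On deposited values 1 member passed (Sox21, difference 1.55), and 2 members were lower and 5 higher without overlap, against 1 and 7 on the centred scale. On the same values the progenitor list had 2 higher and 2 lower calls, and the neuron list had 2 lower (Atoh7 and Isl1). The progenitor and neuron lists each had 1 lower call when centred on the named genes (Rax and Atoh7). In the fits with an array left out the progenitor list had 0 to 2 higher and 0 to 1 lower calls, and the other Sox genes 0 to 1 higher, which was Sox7. Causes were not tested. Sox5 and Sox6 were not in the fit without dim genes, and the noncoding list had no member left there. Signals near the array median limit what can be said of Sox5 on all arrays and of Sox6 and Sox21 in controls.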
